A study of Homo sapiens with 24 samples.

Results

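The immediate early genes described here were EGR1, FOS, FOSB, JUN, JUNB, IER2, IER3, ATF3, DUSP1 and MYC, a set of 10 members among 19775 genes that the platform annotation names on at least 1 probe set of their own. A probe set belonged to a member if its single gene symbol was that member, which gave 19 probe sets. EGR1, ATF3 and DUSP1 had 3 each, JUN had 4 and the other members 1 each. Each member is described by its brightest probe set, the one with the highest mean log2 signal over all arrays, and by the others where they differ in sign or call.

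Affymetrix HG-U133 Plus 2.0 arrays were hybridised with RNA from 24 cultures in 8 groups of 3, to follow the nuclear response to loss of mitochondrial DNA (mtDNA). All 18 HEK293 cultures, from a human embryonic kidney line, carried a doxycycline-inducible dominant-negative mtDNA polymerase gamma transgene (DN-POLG). AOX/NDI1 cells, a derivative that also expresses alternative oxidase and the NADH dehydrogenase NDI1 so that NADH can be oxidised without the mtDNA-encoded respiratory chain, were sampled after 9 days of doxycycline and at day 0, before induction. DN-POLG cells without these enzymes were sampled uninduced (day 0) and on days 3, 6 and 9 of induction, and the remaining 6 cultures were the osteosarcoma line 143B, as its chronically mtDNA-depleted rho0 derivative and as the parental rho+ line. All medium held high glucose, uridine and pyruvate. No HEK293 group was held for 9 days without doxycycline, so loss of mtDNA there cannot be told apart from doxycycline or time in culture. The rho0 and rho+ cultures come from a single line each, so loss of mtDNA cannot be told apart from other differences between those lines. In bulk RNA, fewer expressing cells and less RNA per cell cannot be told apart either.

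The trimmed mean signal was 499.9 on every array. POLG, the gene of the transgene, has 3 probe sets, of which 1 separated induced from uninduced cultures. It read 4035, 2468 and 447.2 at day 9 and 196.8 to 274.2 at day 0 in AOX/NDI1 cells, while DN-POLG cells had 2834 to 4739 at day 9, against 280.1 to 421 before induction, so that on this probe set replicate 3 of AOX/NDI1 day 9 was the lowest of the induced cultures. Another overlapped between the days in DN-POLG cells (1019 to 1298 at day 9, against 642.6 to 1294.5 before induction), and the remaining one read at most 78.6 on any of these arrays. The 3' to 5' ratio of ACTB, which rises as RNA degrades, was 1.05 to 1.81 on the HEK293 arrays except for 8.92 on DN-POLG day 6 replicate 1. In 143B cells rho0 arrays had ratios of 5.53 to 8.12, against 10.4 to 17.1 on rho+ arrays. Of 7 HEK293 markers, 1 (LIN28B) was above the signal filter in 143B and 5 in HEK293 cells, where LHX1 and NEFM were under it. Of 16 osteosarcoma or mesenchymal markers 13 passed in 143B and 10 in HEK293 cells, and COL1A2 and THY1 were under the filter in both.

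Immediate early genes are transcribed within minutes of a growth factor or stress signal without new protein synthesis, and their transcripts are short-lived. MAP kinases reach their promoters through serum response factor with its ELK partners and through CREB and ATF factors. FOS and JUN proteins pair to form AP-1, EGR1 is a zinc-finger factor, ATF3 is a stress-induced bZIP factor, DUSP1 dephosphorylates MAP kinases, and MYC drives genes of growth and ribosome production.

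RefSeq promoters were at hand for 8 of the 10 members (GRCh38.p14, 9 start sites), and the 250 bases before each start were searched on both strands. IER3 and MYC had no entry. The windows below show letter matches to kinds of element through which such genes are known to be induced. Binding at these matches was not tested. The match is in capitals, a CArG box (the serum response factor site), TGACGTNA (the CREB and ATF site), TGACATCA (an AP-1-like site) or TGATGNAA (the amino acid response element bound by ATF4 with C/EBP factors), and none of these matches overlapped.
EGR1, chr5:138465364-138465393, plus strand, CArG box: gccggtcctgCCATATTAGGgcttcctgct
EGR1, chr5:138465386-138465415, plus strand, CArG box: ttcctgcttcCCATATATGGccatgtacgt
EGR1, chr5:138465330-138465359, plus strand, TGACGTNA on the other strand: gatggggggctTCACGTCActccgggtcct
FOSB, chr19:45467925-45467954, plus strand, TGACGTNA: caaggggcgggTGACGTAAgcaggggggcg
DUSP1, chr5:172771302-172771331, minus strand, TGACGTNA: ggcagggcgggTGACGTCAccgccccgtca
JUN, chr1:58784096-58784125, minus strand, TGACATCA: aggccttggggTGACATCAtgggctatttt
ATF3, chr1:212565273-212565302, plus strand, TGACATCA: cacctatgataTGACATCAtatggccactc
ATF3, chr1:212565205-212565234, plus strand, TGATGNAA: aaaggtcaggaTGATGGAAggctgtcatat

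EGR1 was the only member with a CArG box in this window, and it held a pair of them, while 1.16% of 35116 promoters held at least 1. TGACGTNA was found in 3 members (2.67% of all promoters), TGACATCA in 2 (2.37%) and TGATGNAA in 1 (3.14%). The AP-1 site TGANTCA was found in none of the 8, and in 6.57% of all promoters. FOS, JUNB and IER2 held none of the searched letters in these windows.

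At day 9 of induction, JUNB and ATF3 were higher and EGR1 and FOS lower in DN-POLG cells than at day 0. In AOX/NDI1 cells JUNB, ATF3 and DUSP1 were higher at day 9 than at day 0 and JUN was lower by 2 of its 4 probe sets. Expressed as counts, 4 of 9 tested members passed in DN-POLG cells (limma, Benjamini-Hochberg adjusted p under 0.05 for at least 1 probe set), where 13.1% of 12111 genes passed, 3.48% higher and 9.08% lower. In AOX/NDI1 cells 4 of 9 passed, where 18.1% of genes did, 3.66% higher and 13.8% lower. FOSB lay under the signal filter in HEK293 cells, a mean log2 signal of 5.83 (57.0 signal units), and was not tested there. The median log2 fold change of the 9 brightest probe sets was 0.21 in AOX/NDI1 and 0.40 in DN-POLG cells, against -0.04 and 0.01 over the brightest probe sets of all tested genes. Of 5 tested HEK293 markers 1, EYA1, was lower in both models (-1.22 in AOX/NDI1 and -1.73 in DN-POLG cells, limma adjusted p = 0.00400 and 0.000539), which was not tested as a part of these results.

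**Figure D1:**
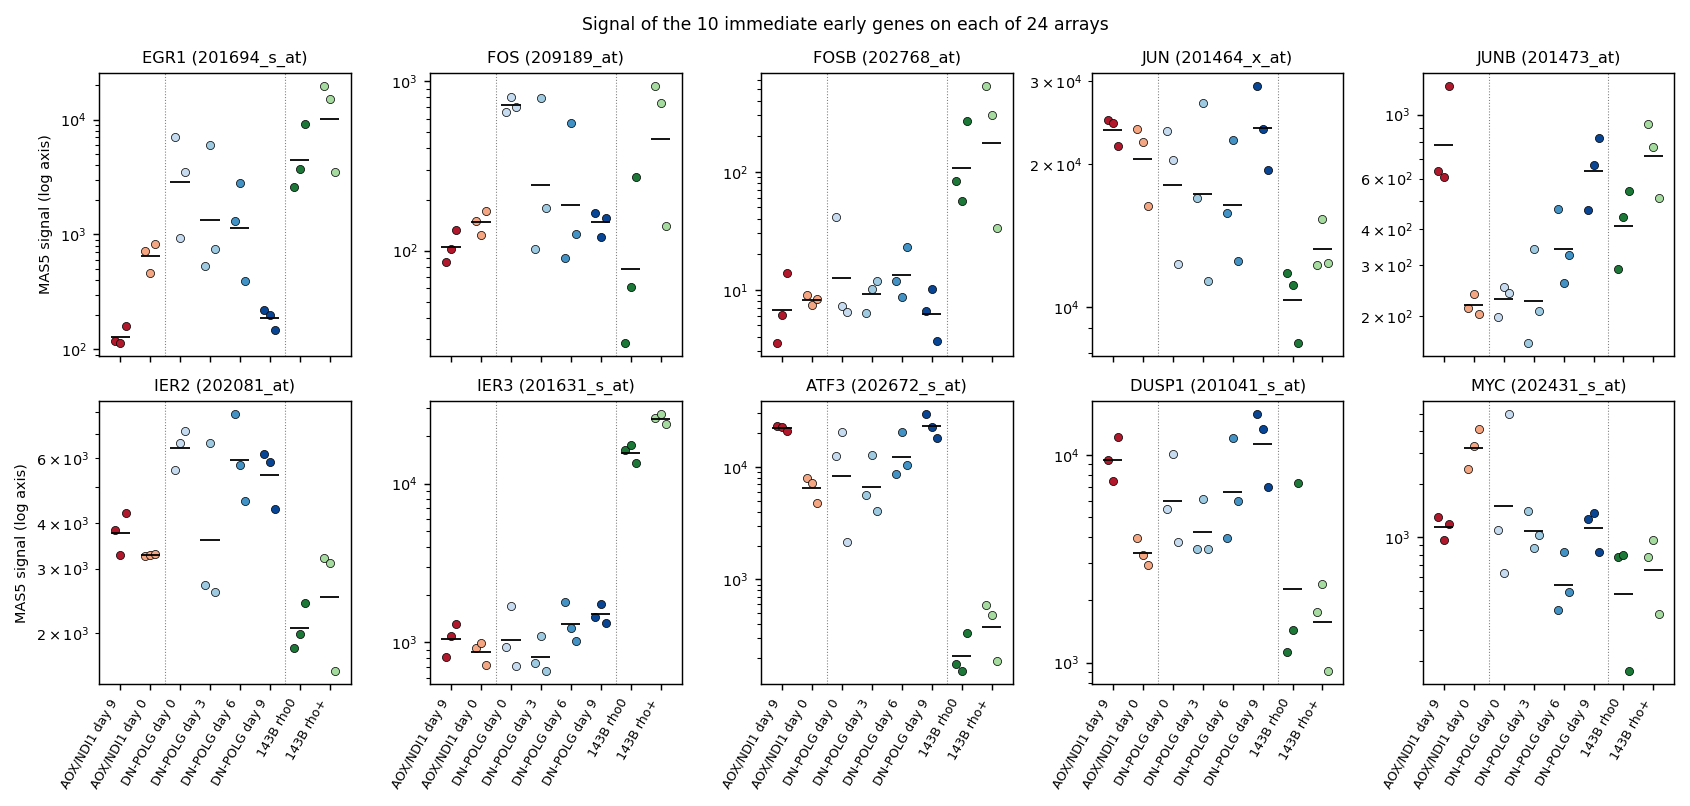
MAS5 signal (log axis) of the brightest probe set of each immediate early gene, 1 point per array in replicate order, with the geometric mean of each group as a bar. The 3 DN-POLG day 9 arrays of EGR1 sit between 148.3 and 220.5, below all 3 day 0 arrays.

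EGR1 (chromosome 5, 138465479 to 138469303) had signals of 220.5, 198.2 and 148.3 in DN-POLG cells at day 9, against 7056, 927.1 and 3480.3 at day 0. In AOX/NDI1 cells it had 119.0, 113.8 and 159.8 at day 9, against 713.4, 460.1 and 826.3 at day 0. In both cell models the day 9 arrays lay below the day 0 arrays with no overlap, and the day 0 arrays of DN-POLG cells differed among themselves by 7.61-fold. The log2 fold change was -3.93 in DN-POLG cells (standard error 0.84, 95% interval -5.70 to -2.15, limma adjusted p = 0.00839), a level 15.2-fold lower. It was -2.32 in AOX/NDI1 cells (95% interval -4.10 to -0.55, limma adjusted p = 0.0853), which did not pass, though EGR1 was called there by another probe set when replicate number was a block. The second probe set, 227404_s_at, had 178.1, 62.9 and 14.3 in DN-POLG cells at day 9, against 4040.3, 1193 and 2703 at day 0, and was lower without overlap (limma adjusted p = 0.00495). In AOX/NDI1 cells it had 40.6, 17.9 and 96.8 at day 9, against 463.0, 262.8 and 539.6 at day 0 (limma adjusted p = 0.0572). Its day 9 geometric means, 41.3 in AOX/NDI1 and 54.3 in DN-POLG cells, lay under the signal filter, so no exact fold is given. The third, 201693_s_at, gave -1.50 in DN-POLG cells (0.296) and -0.41 in AOX/NDI1 cells (0.790), and all 3 probe sets of EGR1 had the same sign.

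Between these ends, EGR1 had 535.8, 5951 and 750.9 at day 3 and 1315, 2814.0 and 397.4 at day 6 in DN-POLG cells. Replicate 2 stood above the others at both times, and both groups overlapped day 0. The log2 fold change against day 0 was -1.08 at day 3 (limma adjusted p = 1.00) and -1.32 at day 6 (0.467), and day 9 against day 6 gave -2.61 (0.201). None of these passed.

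FOS (chromosome 14, 75278828 to 75282230), the AP-1 partner of the JUN proteins, had signals of 167.0, 120.5 and 156.4 in DN-POLG cells at day 9, against 654.4, 806.5 and 704.1 at day 0. The day 9 arrays were lower without overlap, by 2.29 on the log2 scale (a fold change of -2.29, standard error 0.63, limma adjusted p = 0.0339) or 4.91-fold. That call was lost on leaving out any 1 of the 6 arrays (limma adjusted p = 0.0675 to 0.106). At day 3 FOS read 102.8, 789.0 and 177.4 and at day 6 90.6, 562.4 and 125.4, with replicate 2 again the highest, inside the day 0 range at day 3 and below it at day 6. AOX/NDI1 cells had 86.1, 101.7 and 131.5 at day 9, against 148.9, 123.3 and 171.3 at day 0, groups that overlapped (log2 fold change -0.48, 95% interval -1.83 to 0.86, limma adjusted p = 0.679).

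JUNB (chromosome 19, 12791486 to 12793315), an AP-1 component that can oppose JUN, moved the other way. It had 639.4, 605.8 and 1255.0 in AOX/NDI1 cells at day 9, against 213.8, 238.4 and 203.2 at day 0, and 467.5, 669.9 and 829.8 in DN-POLG cells at day 9, against 198.5, 253.1 and 239.8 at day 0. Neither pair of groups overlapped. The log2 fold change was 1.85 in AOX/NDI1 cells (standard error 0.33, limma adjusted p = 0.00199) and 1.48 in DN-POLG cells (0.33, limma adjusted p = 0.0107). The AOX/NDI1 call was kept without replicate 3 of day 9, the culture with little transgene signal (1.51, limma adjusted p = 0.0120), and the DN-POLG call was lost without replicate 3 of day 9 (1.29, 0.0600). At day 6 of DN-POLG cells JUNB read 472.2, 260.5 and 324.8, all above day 0, and the log2 fold change was 0.58 (limma adjusted p = 0.413). The value of 472.2 came from replicate 1, the array with an ACTB ratio of 8.92.

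JUN (chromosome 1, 58780791 to 58784047), the founding AP-1 subunit, gave a split answer across its probe sets. The brightest, 201464_x_at, had 24814, 24486 and 21927 in AOX/NDI1 cells at day 9, against 23723, 22304 and 16343.5 at day 0, and 201465_s_at also overlapped between the days (log2 fold changes 0.21 and 0.30, limma adjusted p = 0.733 and 0.752). In contrast 213281_at had 1327.5, 2054 and 1367 at day 9, against 4493, 4131 and 3649 at day 0, and 201466_s_at had 9464.5, 5075 and 5317 at day 9, against 19603, 19975 and 14447 at day 0. Both of these were lower at day 9 with no overlap (log2 fold change -1.40, limma adjusted p = 0.00576, and -1.49, limma adjusted p = 0.0152). For 201466_s_at, leaving out day 9 replicate 2 or 3, or day 0 replicate 1 or 2, ended the call (limma adjusted p = 0.0587 to 0.0680), while 213281_at kept its call without any single array. Averaging the 4 probe sets gave -0.59 (limma adjusted p = 0.198). In DN-POLG cells no JUN probe set passed between day 9 and day 0 (-0.64 to 0.55). The annotation does not state which part of the transcript each probe set reads.

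**Figure D2:**
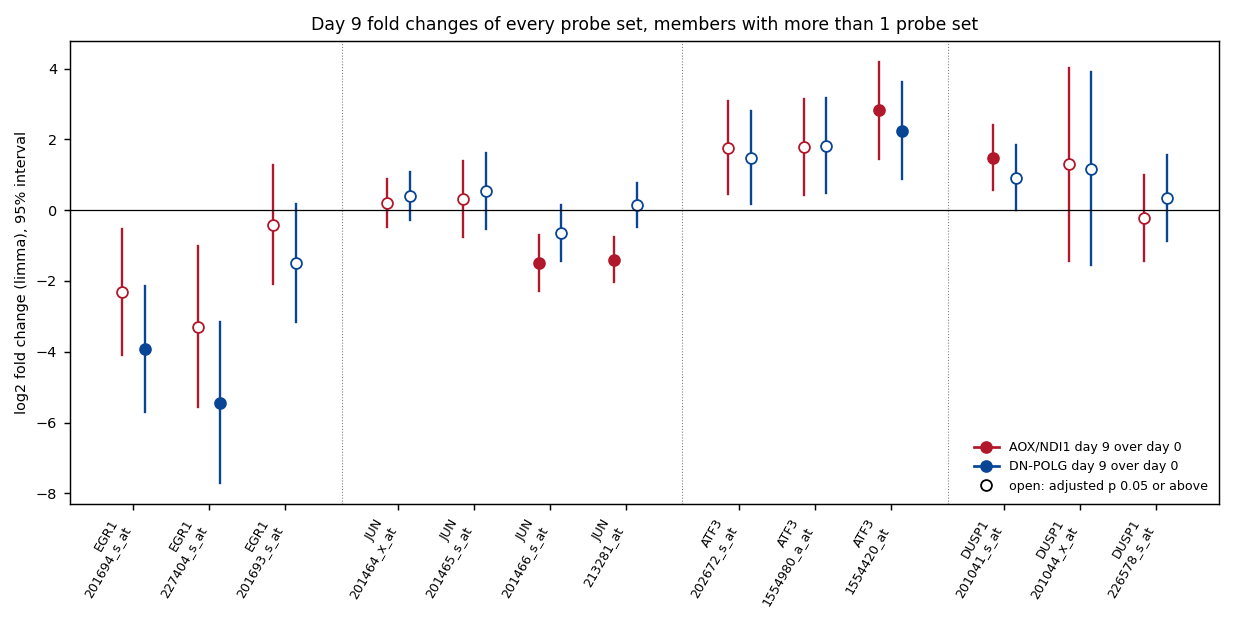
Log2 fold change of day 9 over day 0 with 95% intervals (limma) for every probe set of EGR1, JUN, ATF3 and DUSP1, in AOX/NDI1 (red) and DN-POLG cells (blue), filled where the adjusted p was under 0.05. The JUN probe sets 201466_s_at and 213281_at lie at -1.49 and -1.40 in AOX/NDI1 cells while the other 2 lie at 0.21 and 0.30.

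FOSB, a FOS paralog, had 3.55 to 13.8 in AOX/NDI1 cells at day 9 and 7.38 to 9.00 at day 0. In DN-POLG cells it had 6.51 to 41.7 at day 0 and 3.67 to 22.9 from day 3 to day 9. Only replicate 1 of DN-POLG day 0 exceeded 22.9, and all of these signals were under the filter.

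ATF3 (chromosome 1, 212565407 to 212620777) had 23088, 22615 and 20731 in AOX/NDI1 cells at day 9, against 7967, 7229.7 and 4759.5 at day 0. In DN-POLG cells it had 29353, 22462 and 18218 at day 9, against 12436, 20636 and 2170.3 at day 0. The AOX/NDI1 groups did not overlap, whereas replicate 2 of DN-POLG day 0 exceeded the lowest day 9 array. On this probe set, 202672_s_at, the log2 fold change was 1.77 in AOX/NDI1 cells (standard error 0.62, limma adjusted p = 0.0766) and 1.48 in DN-POLG cells (0.173).

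The call on ATF3 came from another probe set, 1554420_at, with 2713, 2718 and 2428 in AOX/NDI1 cells at day 9, against 472.1, 379.6 and 285.0 at day 0, and 3019, 2808 and 1794.5 in DN-POLG cells at day 9, against 468.9, 963.0 and 313.7 at day 0. Both pairs of groups were apart. The log2 fold change was 2.82 in AOX/NDI1 cells (standard error 0.65, limma adjusted p = 0.00971) and 2.25 in DN-POLG cells (limma adjusted p = 0.0415). Of 17 alternatives, 10 lost the DN-POLG call. The remaining probe set, 1554980_a_at, gave 1.78 and 1.82 in the same order (limma adjusted p = 0.0821 and 0.0956). All 3 probe sets had the same sign in both models. Within DN-POLG cells 1554420_at read 175.0, 230.9 and 174.6 at day 3, below all day 0 arrays, and 100.5, 1395 and 559.1 at day 6 (log2 fold change against day 0 at day 3 -1.44, limma adjusted p = 1.00).

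DUSP1 (chromosome 5, 172768096 to 172771195), the MAP kinase phosphatase, had 9410.3, 7455 and 12128 in AOX/NDI1 cells at day 9, against 3971, 3302 and 2951 at day 0, with no overlap. Its log2 fold change was 1.49 (standard error 0.43, limma adjusted p = 0.0326), and 5 of the 6 fits that left out an array of these groups lost the call (limma adjusted p = 0.0620 to 0.128), as did the fit on averaged probe sets (0.85, 0.361). DN-POLG cells had 15649, 13253 and 6968 at day 9, against 5494, 10139.8 and 3822 at day 0, which overlapped (log2 fold change 0.92, 95% interval 0.02 to 1.83, limma adjusted p = 0.225). The other 2 probe sets of DUSP1 did not pass in either model.

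IER2 (chromosome 19, 13150411 to 13154911), a nuclear growth-response protein, had 5580.2, 6587 and 7108 at day 0, 2702, 6606 and 2581 at day 3, 7903, 5764 and 4580.3 at day 6 and 6147, 5870.1 and 4374 at day 9. At day 3 replicates 1 and 3 were below every other DN-POLG array and replicate 2 was not, and the fold change on the log2 scale was -0.83 (limma adjusted p = 1.00). AOX/NDI1 cells had 3827, 3265.5 and 4249 at day 9, against 3236, 3269.8 and 3286 at day 0.

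IER3 (chromosome 6, 30743199 to 30744547), a regulator of cell survival, stayed between 659.7 and 1793 on all 18 HEK293 arrays. Its log2 fold change at day 9 was 0.27 in AOX/NDI1 cells (95% interval -0.40 to 0.93) and 0.53 in DN-POLG cells (95% interval -0.14 to 1.20), with limma adjusted p = 0.643 and 0.373.

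MYC had 1297.0, 964.2 and 1196.0 in AOX/NDI1 cells at day 9, against 2445, 3288 and 4100.2 at day 0. The day 9 arrays were lower with no overlap, and the log2 fold change of -1.49 (standard error 0.53, 95% interval -2.62 to -0.35) did not pass (limma adjusted p = 0.0838). In DN-POLG cells MYC read 1106, 631.1 and 4972 at day 0, 1412, 873.1 and 1037 at day 3, 386.5, 832.0 and 488.2 at day 6 and 1275, 1365 and 823.4 at day 9. Replicate 3 of day 0 stood far above the other arrays of its group, and no time passed against day 0 (log2 fold changes -1.49 to -0.43).

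**Figure D3:**
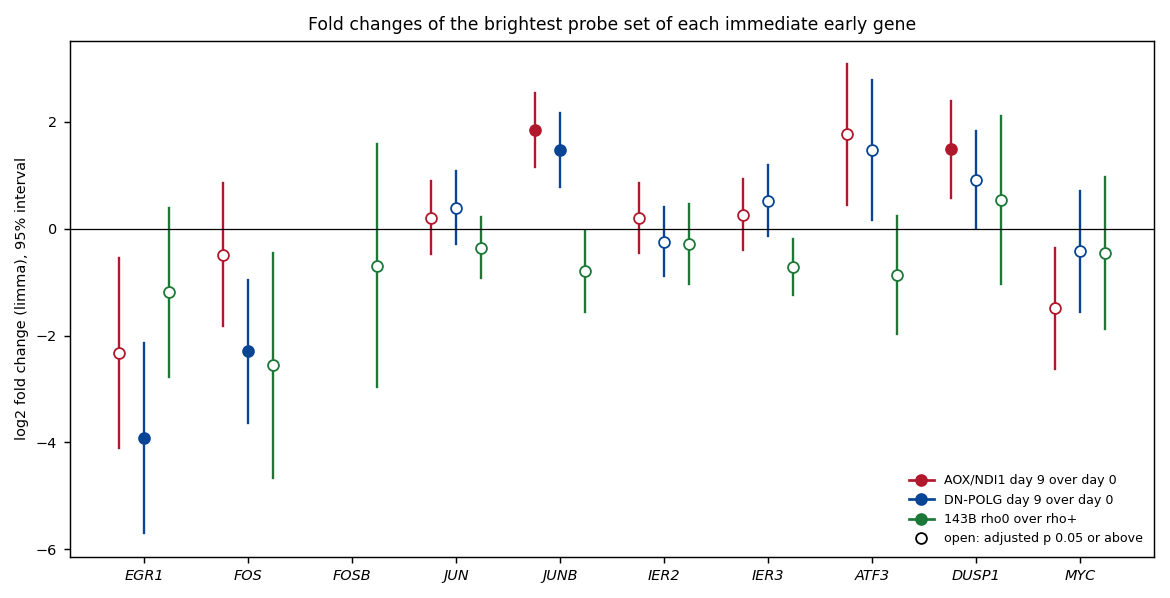
Log2 fold change with its 95% interval (limma) of the brightest probe set of each member for AOX/NDI1 day 9 over day 0 (red), DN-POLG day 9 over day 0 (blue) and 143B rho0 over rho+ (green), filled where the adjusted p was under 0.05. JUNB is filled at 1.85 and 1.48 and EGR1 at -3.93.

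At days 3 and 6 of DN-POLG cells 0 of 9 tested members passed against day 0 in limma, and likewise 0 with the methods' analysis of variance. At an unadjusted p under 0.05 there were 3 at day 3 (FOS, IER2 and ATF3) and 2 at day 6 (FOS and MYC). Of all tested genes 4.9% had such a p at day 3 and 24.8% at day 6. After adjustment 0% of all genes passed at day 3 and 2.45% at day 6. Day 6 against day 3 (4.35% of genes) and day 9 against day 6 (0.553%) also gave 0 members each in both tests, with 3 each at an unadjusted p. The shares of all genes at that unadjusted threshold were 27.2% and 19.7%.

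AOX/NDI1 and DN-POLG cells were compared at the same day. At day 0 neither was induced. AOX/NDI1 is a derived line, so the added enzymes cannot be told apart from other differences between the lines. No member passed in limma or in the methods' analysis of variance at day 9 or at day 0, where 0.00826% of genes passed each time. An unadjusted p under 0.05 was found for 7.08% of all genes at day 9 and 8.25% at day 0. Among the members 2 at day 9 and 4 at day 0 had such a p. At day 9 these were JUN (213281_at -1.03, unadjusted p = 0.00308 from limma) and DUSP1 (226578_s_at -1.49, 0.0185). At day 0 they were JUN and FOS, EGR1 and IER2. FOS had 148.9, 123.3 and 171.3 in AOX/NDI1 against 654.4, 806.5 and 704.1 in DN-POLG cells. EGR1 had 713.4, 460.1 and 826.3 in AOX/NDI1 against 7056, 927.1 and 3480.3 in DN-POLG cells, and IER2 3236, 3269.8 and 3286 against 5580.2, 6587 and 7108. The JUN probe set 201466_s_at went the other way, with 19603, 19975 and 14447 in AOX/NDI1 against 19562, 5244 and 10257 in DN-POLG cells (0.81, unadjusted p = 0.0445 from limma). FOS, EGR1 and IER2 were lower in AOX/NDI1 cells on every array, by -2.30 (unadjusted p = 0.00229 from limma), -2.13 (0.0219) and -0.97 (0.00599) on the log2 scale, each with an adjusted p of 0.906. When only these 6 arrays entered the model FOS passed, and the share of all genes passing in that fit is not given here.

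The difference between the day 9 responses, AOX/NDI1 minus DN-POLG, was tested as an interaction. In limma 0 members passed and 0% of genes did, and the methods' analysis of variance also gave 0. An unadjusted p under 0.05 was found for 1 member, JUN, and for 6.13% of all genes. For JUNB the difference was 0.37 (95% interval -0.61 to 1.36), for ATF3 0.29 (-1.57 to 2.15), for DUSP1 0.57 (-0.72 to 1.85), for EGR1 1.60 (-0.91 to 4.12) and for FOS 1.81 (-0.09 to 3.71). The JUN probe set 213281_at gave -1.55 (-2.43 to -0.66, limma adjusted p = 0.999). The intervals of all 5 members other than JUN include no difference and are wide. The day 9 values of AOX/NDI1 cells came with ACTB ratios of 1.28 to 1.52, against 1.14 to 1.18 at day 0. An exact two-sided permutation gave p = 0.1 for this, the lowest value possible with 3 cultures a group, and in DN-POLG cells 1.06 to 1.77, against 1.08 to 1.75 (exact permutation p = 0.8). The part of RNA quality in these responses was not tested.

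In 143B cells, chronic loss of mtDNA was compared through rho0 and rho+ cultures. No member passed in limma or the methods' analysis of variance (0 of 10, where 11.4% of 11443 genes passed). An unadjusted p under 0.05 was found for 4 members (EGR1, FOS, JUNB and IER3), beside 37.3% of all genes. The median log2 fold change of the 10 brightest probe sets was -0.70, against -0.02 over the brightest probe sets of all tested genes. Setting all arrays to one median signal moved the median of all tested probe sets to 0.25, against -0.05 as deposited. Beside these values 5 of 13 tested osteosarcoma or mesenchymal markers were higher in rho0 cells and 0 lower, among them S100A4 (2.89, limma adjusted p = 0.00139), and their part in the result was not tested.

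IER3 had 16211, 17501 and 13450.2 in rho0 cells, against 25974, 27339 and 23911 in rho+ cells, lower without overlap (log2 fold change -0.72, 95% interval -1.25 to -0.19, limma adjusted p = 0.0941). FOS had 28.6, 60.7 and 271.6 in rho0 cells, against 931.8, 737.3 and 139.3 in rho+ cells. EGR1 had 2575.0, 3679.7 and 9069 in rho0 cells, against 19579, 15074 and 3478 in rho+ cells. FOS overlapped through replicate 3 of each line, the highest array of rho0 and the lowest of rho+ (log2 fold change -2.56, limma adjusted p = 0.120). EGR1 overlapped through replicate 3 of rho+, which lay below replicates 2 and 3 of rho0 (log2 fold change -1.19, limma adjusted p = 0.302). Without replicate 3 of rho0, EGR1 and FOS passed as lower, and the share of all genes passing in that fit is not given here.

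JUNB had 291.6, 442.4 and 541.2 in rho0 cells, against 923.9, 774.4 and 512.5 in rho+ cells (log2 fold change -0.80, limma adjusted p = 0.165). FOSB had 84.0, 56.5 and 268.6 in rho0 cells, against 532.4, 301.9 and 33.4 in rho+ cells, and DUSP1 1119, 1428 and 7303, against 1754, 2389.8 and 909.0. Here too replicate 3 of each line crossed over. DUSP1 had the only positive log2 fold change among the 10 brightest probe sets, 0.54 (95% interval -1.04 to 2.12, limma adjusted p = 0.653). JUN, IER2, ATF3 and MYC had log2 fold changes between -0.86 and -0.28, and none passed. The ACTB ratios differed between the lines (p = 0.1 by exact two-sided permutation, the lowest possible), and their part in these values was not tested.

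The chronic response was set against the acute one as the rho0 to rho+ change minus the day 9 to day 0 change of DN-POLG cells, over all 24 arrays. In limma 2 of 9 members passed as lower in this difference, JUNB and, only by probe sets under the filter in 143B cells, ATF3, where 14.8% of 11901 genes passed and 7.47% were lower and 7.28% higher. For JUNB the difference was -2.27 (standard error 0.48, 95% interval -3.28 to -1.27, limma adjusted p = 0.00568), from -0.80 in rho0 cells and 1.48 in DN-POLG cells. For ATF3 the brightest probe set gave -2.34 and did not pass (limma adjusted p = 0.0962). The probe sets that passed, 1554420_at and 1554980_a_at (limma adjusted p = 0.0458 and 0.0473), read 3.59 to 14.0 and 14.3 to 109.4 on the 143B arrays. Neither was tested within 143B, where the filter was 83.0 signal units, so a change of ATF3 between rho0 and rho+ cells was not measurable on them. EGR1 differed by 2.73 (limma adjusted p = 0.163) and IER3 by -1.24 (0.0630).

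Across all groups, the order of levels separated the lines for a pair of members. IER3 ran from 13450.2 to 27339 on the 6 arrays of 143B and from 659.7 to 1793 on the 18 HEK293 arrays, and ATF3 from 153.2 to 595.8 and from 2170.3 to 29353. The remaining 7 of 9 compared members overlapped between the lines, whereas 40.6% of 11901 genes did not overlap, 13.4% higher and 27.2% lower in 143B. By group means IER3 ran from 143B rho+ over rho0 to DN-POLG day 9, each apart from the next, and the 6 HEK293 groups overlapped their neighbours. EGR1 ran from 143B rho+ and rho0 over DN-POLG days 0, 3 and 6 and AOX/NDI1 day 0 to DN-POLG day 9 and AOX/NDI1 day 9, and only AOX/NDI1 day 0 and DN-POLG day 9 were neighbours without overlap. ATF3 had both day 9 groups on top, of which AOX/NDI1 day 9 was apart from DN-POLG day 6 and DN-POLG day 9 overlapped it, and JUNB had AOX/NDI1 day 9, 143B rho+ and DN-POLG day 9 on top, all overlapping. FOSB had both 143B groups on top, with rho0 apart from DN-POLG day 6, the next in order, and in FOS, MYC and DUSP1 every group overlapped its neighbours.

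The spread between cultures differed by group. In DN-POLG cells at day 3 the SD of the log2 signal was 1.88 for EGR1 and 1.52 for FOS, above 99.8% and 99.4% of tested probe sets (median SD 0.28). At day 9 the SDs were 0.30 and 0.25, near the median of 0.27. At day 0 EGR1 spread widely (1.49) and FOS did not (0.15, median 0.40). In 143B rho+ cells EGR1, FOS and FOSB had SDs of 1.34, 1.50 and 2.11, above 99.6% to 99.9% of probe sets. By contrast IER2 at AOX/NDI1 day 0 had an SD of 0.01, below all but 0.553% of probe sets.

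Several members were highest or lowest on the same culture. Replicate 2 of DN-POLG day 3 was the highest of its group for 8 of 10 members, all but FOSB and MYC, where 46.0% of all tested genes had their highest value on that array. Replicate 3 of 143B rho+ was the lowest for 9 of 10, all but JUN (35.4% of genes), and replicate 3 of 143B rho0 the highest for 7 of 10 (49.9%). Replicate 3 of DN-POLG day 9 was the lowest for 8 of 10 (34.5%), JUNB being highest on it. The 10 members are not independent of each other on an array.

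**Figure D4:**
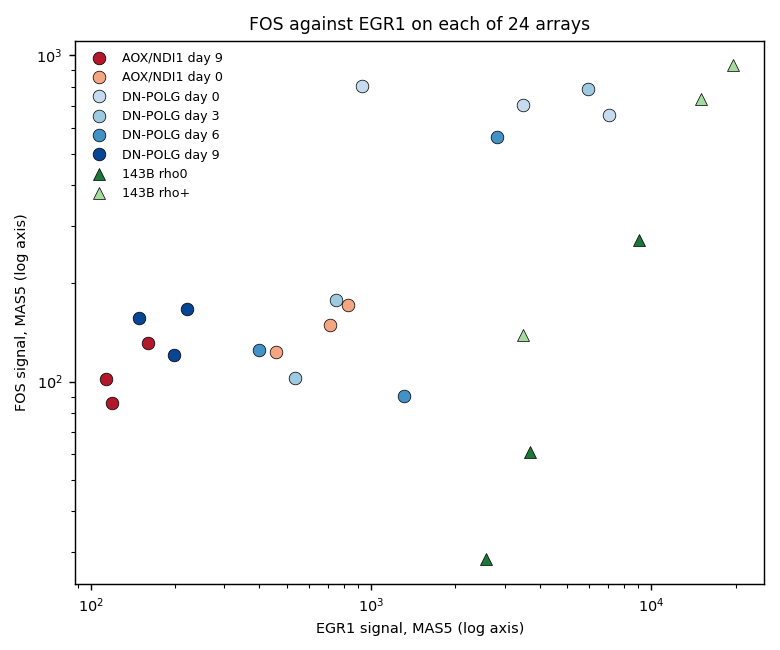
FOS against EGR1 signal (both log axes) on each of 24 arrays, coloured by group, with circles for HEK293 and triangles for 143B. In DN-POLG day 3 and day 6, replicate 2 has FOS signals of 789.0 and 562.4, and the other 4 arrays lie between 90.6 and 177.4.

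Over the 18 HEK293 arrays the Pearson correlation of log2 signals was 0.785 between EGR1 and FOS and 0.683 after removing group means. It was 0.879 between ATF3 and DUSP1 (0.774 within groups) and 0.748 between JUN and ATF3 (0.834 within groups). EGR1 and JUNB had -0.644 over all arrays and 0.209 within groups. MYC ran against ATF3 (-0.525, within groups -0.664) and against IER3 (-0.573, within groups -0.631). These arrays share groups and scaling, and the values are descriptions.

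Beyond the members, the genes most like EGR1 over the 18 arrays, among 12102, were CEBPA, a bZIP factor of differentiation (r = 0.886), ZNF669 (0.865), ALKBH4 (0.860), SPR, the sepiapterin reductase (0.860), and ADCY9, an adenylate cyclase (0.848). Those most like MYC were CEP19 (0.874), SQLE, of cholesterol synthesis (0.873), CNPY2 (0.868), ARL6 (0.867) and ANKRD46 (0.867).

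Of 32 tested genes in a list of other immediate early and early response genes, 8 were higher and 5 lower in AOX/NDI1 cells at day 9, beside 3.66% of all tested genes higher and 13.8% lower, with a median log2 fold change of 0.47 against -0.04 over all genes. In DN-POLG cells 3 were higher and 2 lower, a share close to the 13.1% of all genes called (median 0.32 against 0.01). RHOB, a small GTPase, ID3, an inhibitor of helix-loop-helix factors, and GADD45B were higher and ETS2, an ETS factor, lower in both models. ETS2 fell by 1.69 in AOX/NDI1 cells and by 1.73 in DN-POLG cells (limma adjusted p = 0.00179 and 0.00206). EGR3, an EGR1 paralog, was lower in DN-POLG cells at day 9, with geometric means of 39.0 at day 9, under the filter, and 167.3 at day 0 (limma adjusted p = 0.00653). In AOX/NDI1 cells CCN1, a matricellular protein, rose by 2.13 (limma adjusted p = 0.00198), and NR4A1, an orphan nuclear receptor, was higher, with 137.7 at day 9 and 26.4, under the filter, at day 0 (0.00377). In rho0 cells 0 of 34 were higher and 5 lower than in rho+ cells, beside 11.4% of all genes called, among them NFKBIA, the NF-kappaB inhibitor (-3.18, limma adjusted p = 0.00325), and KLF2, with geometric means of 81.3 in rho0 cells, under the filter there, and 285.9 in rho+ cells (0.0122).

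Of 9 tested AP-1 partners, 2 were higher and 0 lower at day 9 in AOX/NDI1 cells and 1 and 0 in DN-POLG cells. Over all genes 3.66% were higher and 13.8% lower in AOX/NDI1 and 3.48% and 9.08% in DN-POLG cells. ATF7 was higher in both models (0.91 in AOX/NDI1 and 0.86 in DN-POLG cells, limma adjusted p = 0.0297 and 0.0477). FOSL2 was higher in AOX/NDI1 cells, with geometric means of 112.7 at day 9 and 27.5, under the filter, at day 0 (limma adjusted p = 0.0187). In rho0 cells FOSL1 and FOSL2 were higher (1.02 and 1.20, limma adjusted p = 0.0327 and 0.0392) and JUND lower (-1.18, 0.0344), beside 11.4% of all genes called. Of 16 input genes of the serum response, MAP kinase and CREB routes, 1 was higher and 3 lower in DN-POLG cells at day 9. In AOX/NDI1 cells 2 were higher, 3 lower and 1 had probe sets called in both directions. MAPK8, which encodes JNK1, and CREB1 were lower and ELK4 higher in both models at day 9. MAPK8 fell by 1.69 in AOX/NDI1 and by 2.21 in DN-POLG cells (limma adjusted p = 0.000397 and 0.000134), and CREB1 by 1.65 and 2.16 (0.00231 and 0.000515). No input gene passed in rho0 cells (16 tested, limma), where 11.4% of all genes did.

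Feedback inhibitors of MAP kinase signalling include the SPRED proteins and the DUSP phosphatases. Of 16 tested, 1 was higher and 5 lower in AOX/NDI1 cells at day 9 and 0 and 4 in DN-POLG cells, beside 3.66% of all genes higher and 13.8% lower in AOX/NDI1 and 3.48% and 9.08% in DN-POLG cells (medians -0.54 in both, against -0.04 and 0.01 over all genes). SPRED2 and DUSP16 were lower in both. SPRED2 fell by 1.16 in AOX/NDI1 and by 1.45 in DN-POLG cells (limma adjusted p = 0.00990 and 0.00322). DUSP4 was lower in DN-POLG cells, with geometric means of 34.8 at day 9, under the filter, and 325.5 at day 0 (limma adjusted p = 0.0296). In rho0 cells SPRED1 was lower (-1.49, limma adjusted p = 0.0147).

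Around MYC, 1 of 9 tested dimer partners and antagonists was higher and 2 lower at day 9 in each model. Over all genes 3.66% were higher and 13.8% lower in AOX/NDI1 and 3.48% and 9.08% in DN-POLG cells. MXD1, an antagonist that competes for MAX, was higher in both models (1.05 in AOX/NDI1 and 1.00 in DN-POLG cells, limma adjusted p = 0.00838 and 0.0143). MYCL, a MYC paralog, was lower in both, MAX was lower in DN-POLG cells and MGA in AOX/NDI1 cells. The geometric mean of MYCL in AOX/NDI1 cells was 54.3 at day 9, against 189.5 at day 0, and in DN-POLG cells 45.9 at day 9, against 185.2 at day 0, both day 9 values under the filter (limma adjusted p = 0.000460 and 0.000272). Of 14 tested MYC target genes, 0 were higher and 1, POLR1B, lower in each model, beside those same shares of all genes. Their medians were 0.19 in AOX/NDI1 and 0.16 in DN-POLG cells, against -0.04 and 0.01 over all genes. In rho0 cells 3 of 14 were higher and 0 lower, beside 11.4% of all genes called (median 0.77 against -0.02 over all genes). They were NOP16, SRM and CAD, with log2 fold changes of 1.70, 1.42 and 1.08 (limma adjusted p = 0.0136, 0.0187 and 0.0423). MYC itself read 776.1, 794.2 and 174.9 in rho0 cells, against 774.0, 970.9 and 367.4 in rho+ cells.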

How the data were processed

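Gene expression was measured on 24 arrays, 3 cultures in each of 8 groups. The authors made the deposited signal intensities with MAS5 in Affymetrix Expression Console, per the labels and methods, on a linear scale; log2 was taken with nothing added. Probe sets were named from the platform annotation (41097 of 54675 carry 1 symbol, 1801 several and 11777 none). Tested were those with 1 symbol and a mean log2 signal at or above the median over the arrays of the fit, 5.83 for 18 HEK293 arrays, 6.38 for 6 arrays of 143B and 5.87 for all 24.

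Group means were compared with limma 3.58.1 in R 4.3.3 (lmFit, contrasts.fit, eBayes), two-sided, with Benjamini-Hochberg adjustment over all tested probe sets and a threshold of 0.05; 11 comparisons were made, and a difference of responses was an interaction contrast. Scripts were first tested on simulated data in which the changed genes were known. Replicates are separate cultures, so p-values measure the spread between cultures, and 3 per group limit the precision. All HEK293 comparisons shared the same spread estimate for a probe set, pooled over the HEK293 groups, although spread differed by group. The log2 SD of MYC was 1.54 at DN-POLG day 0, 0.37 at AOX/NDI1 day 0 and 0.22 at AOX/NDI1 day 9. For FOS in DN-POLG cells it was 1.52 at day 3, but 0.15 at day 0 and 0.25 at day 9. A pass or a failure between groups of small spread thus also depended on the spread of the other groups.

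The 10 members, the lists of related genes and the tests were chosen with earlier results of these data known. Named genes are the members, up to 4 genes of each list with the smallest p in a comparison and the 5 genes most correlated with EGR1 and with MYC; GADD45B and the markers outside that rule were named after their values were seen. No test of a list was made.

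Alternatives covered 10 further settings of normalization, filter, offset, model and test, and fits without any single array. The legend of the study's design says that a culture round came from 1 starter culture. Deviations of same-numbered arrays from their group means correlated by 0.323 to 0.506 between DN-POLG days 0 and 3 and 0.165 to 0.205 between days 0 and 6, but by -0.32 to 0.0397 between days 0 and 9, -0.0385 to 0.065 in AOX/NDI1 cells and -0.178 to 0.074 in 143B cells. The main model therefore has no replicate block.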

Additional observations from a re-analysis of the deposited data

Results flagged for a closer look

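JUNB differed between the chronic and the acute comparison by the test of the difference itself. Between rho0 and rho+ cells alone it did not pass (log2 fold change -0.80, limma adjusted p = 0.165). The rho0 to rho+ change minus the DN-POLG day 9 to day 0 change was -2.27 for JUNB (201473_at), and it passed in all 22 alternatives, at -2.59 to -2.00. Of the 3 probe sets of ATF3, 2 also passed, at -2.92 (1554420_at) and -3.02 (1554980_a_at), but with 143B signals of 3.59 to 14.0 and 14.3 to 109.4 they lay under the 143B filter, so these sizes do not measure a chronic response. Their calls were lost in 14 of 22 and 15 of 23 alternatives, and the brightest probe set of ATF3 did not pass (limma adjusted p = 0.0962). The lines also differ in origin, and neither line nor the 3' to 5' ratio of ACTB (5.53 to 17.1 in 143B, 1.05 to 8.92 in HEK293) can be told apart from this contrast. Groups of 3 are too small for a test of single outlying arrays.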

How the results depend on the processing

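The number of members called kept within 1.5 times of its value except as follows. With array weights it was 4 at DN-POLG day 3 against day 0, 1 at day 6 against day 0, 7 at day 9 against day 0, 4 at day 6 against day 3, 4 for AOX/NDI1 against DN-POLG at day 0 and 1 at day 9, 5 for rho0 against rho+ (all lower) and 4 for the chronic minus acute difference, against 0, 0, 4, 0, 0, 0, 0 and 2. For DN-POLG day 9 against day 0 it was 2 with quantile normalization, with no filter and with the methods' analysis of variance. It was also 2 with a filter at the 75th percentile, under which JUNB and FOS lay, so that they were not tested. For AOX/NDI1 day 9 it was 2, against 4, with probe sets averaged. For AOX/NDI1 against DN-POLG at day 0 it was 1 with the arrays of the comparison alone. The chronic minus acute count was 1 with quantile normalization, no filter or the analysis of variance. The share of all genes called in these fits is not given here. A change particular to the members therefore cannot be read from these counts. Beyond the filter at the 75th percentile, the cause was not tested.

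Leaving out 1 array gave 1 to 4 members for DN-POLG day 9 against day 0, lowest without day 9 replicate 3, and 2 without replicate 1 of either day, day 9 replicate 2 or day 0 replicate 3. It gave 3 to 4 for AOX/NDI1 day 9, 1 to 3 for the chronic minus acute difference, 0 to 2 for rho0 against rho+, 0 to 1 for DN-POLG day 6 against day 0, day 6 against day 3 and day 9 against day 6, and 0 to 0 elsewhere. With the replicate block the counts were 4 for DN-POLG day 9, 5 for AOX/NDI1 day 9, where EGR1 joined by a probe set other than its brightest (which had a limma adjusted p = 0.118 there), 2 for the chronic minus acute difference and 0 elsewhere, and the block moved no count by over 1.5 times. Without DN-POLG day 6 replicate 1, a setting chosen after seeing the data, the day 9 counts were 4 and 4. The share of all genes called is not given beside these counts either. No called value changed sign. With 3 cultures a group, and EGR1 and FOS spreading widely, differences of several-fold in those genes could be missed.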
